A study of Mus musculus with 2 samples.

Results

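A set of 8 complement genes was followed across the cells of the mouse peritoneal cavity: C1qa, C1qb and C1qc, C4b, C3, Cfb, Cfp and C3ar1. They were chosen by symbol from the 28692 genes listed in the data, and all 8 were found. Their transcripts were counted in 7 classes of cells gated on marker genes, namely large macrophages, macrophages with Folr2 and Retnla, cells with Cd209a, B-1 cells, B-2 cells, T cells and natural killer (NK) cells.

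Complement is a set of proteins that coats particles for uptake and recruits leukocytes. In the classical pathway C1q, built from the A, B and C chains, binds antibody complexes and dying cells and leads to cleavage of C4 and then of C3. In the alternative pathway factor B (Cfb) joins deposited C3b to form a convertase that properdin (Cfp) holds together, and the C3a released from C3 is sensed by the receptor C3ar1. Macrophages are a known source of C1q and leukocytes of properdin, whereas much of the C3 and factor B of plasma is made by the liver.

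The data are droplet single-cell RNA sequencing of peritoneal cavity cells (10x Chromium, 3′ chemistry v2), in which each transcript molecule is counted once by its unique molecular identifier (UMI). All mice were germ-free, C57BL/6, male and 10 weeks old, and they were either WT or Xbp1dIEC, a genotype in which Xbp1 is deleted in intestinal epithelial cells. The promoter that drives the deletion is not given in the sources used here. Each genotype is 1 library made from equal numbers of cells of 4 pooled mice, of which 8700 cells were encapsulated. The mice within a pool cannot be told apart, so no test between genotypes was possible and no p-value is given. All intervals below are 95% intervals that cover counting error only, not the variation between mice or between libraries.

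The WT library held 56229330 UMIs in 6204 barcodes (median 8323.5 per barcode) and the Xbp1dIEC library held 49703442 UMIs in 6246 barcodes (median 7279.5). A total of 58 barcodes occurred in both libraries, 0.935% of the WT and 0.929% of the Xbp1dIEC barcodes. Barcodes with 5% or more mitochondrial UMIs numbered 425 in WT and 1153 in Xbp1dIEC, so the libraries differed in this sign of RNA quality, and its part in the results was not tested beyond the values without those cells given after the results. Xbp1 is deleted in the intestinal epithelium and not in the cells sequenced, so its level here checks no label. It stood at 111 CPM (the gene's UMIs scaled to a common total in each class and library) in large macrophages of WT and 120 CPM in those of Xbp1dIEC.

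The gates held 3526 of 6058 WT cells and 3435 of 6113 Xbp1dIEC cells. Large macrophages numbered 2072 in WT and 1916 in Xbp1dIEC, with a median of 10283 and 8210 UMIs per cell. They carried Gata6, the transcription factor of resident peritoneal macrophages, at 91.7 CPM in WT and 99.5 CPM in Xbp1dIEC. All 10 of their marker genes were found in 10% or more of the cells, as they also were in macrophages with Folr2 and Retnla. Of these markers, Gata6, Timd4, Ltbp1, Garnl3, Selp and Adgre1 were part of the gate, so their presence follows from it. There were 144 and 170 macrophages with Folr2 and Retnla. They held Folr2, a folate receptor of tissue macrophages, at 387 and 362 CPM, against 9.74 and 7.06 CPM in large macrophages. Their gate asked for a UMI of Folr2 or Cbr2, so this difference follows in part from the gate. Cells with Cd209a, a lectin of monocyte-derived and dendritic cells, numbered 87 and 93, and these carried the MHC class II gene H2-Ab1 at 13225 and 11568 CPM. There were 374 and 605 B-1 cells, 545 and 392 B-2 cells, 282 and 230 T cells, and 22 and 29 NK cells, in WT and Xbp1dIEC respectively. The smallest class, NK cells, held 87778 UMIs in WT and 93538 in Xbp1dIEC, so 1 UMI weighs heavily there.

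Coordinates are those of mouse build GRCm38 (mm10), and all 8 genes lie on the minus strand in the GENCODE M21 annotation. The C1q chain genes stand side by side on chromosome 4, C1qb at chr4:136880129-136886187, C1qc at chr4:136889804-136893065 and C1qa at chr4:136895917-136898803, within 18675 bases. C4b (chr17:34728380-34743882) and Cfb (chr17:34856374-34862518) lie in the MHC class III region of chromosome 17, and C3 lies elsewhere on the same chromosome (chr17:57203970-57228136). Cfp is X-linked (chrX:20925454-20931555) and C3ar1 is on chromosome 6 (chr6:122847138-122856161). C4b has a near-identical copy, C4a (chr17:34809092-34823464), which was not analysed here. Reads that match both copies make the C4b counts uncertain. Cfb overlaps the annotated gene Gm20547 on the same strand, which had 0 UMIs in every myeloid class, so Cfb counts are uncertain as well, because reads in the overlap may not have been assigned.

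RefSeq promoter sequences of build GRCm38.p6, from 250 bases before to 50 bases after the annotated start, were at hand for 5 of the 8 genes (C1qb, C1qc, C3, Cfp and C3ar1). Those of the neighbouring chain genes C1qb (chr4:136886151-136886450, minus strand) and C1qc (chr4:136892865-136893164, minus strand) are shown because both transcripts were high in the macrophage classes and low in lymphocytes. That of C3 (chr17:57228087-57228386, minus strand) is shown as the gene with few UMIs in the same macrophages. Each runs 5′ to 3′, and capitals mark matches to the motifs described next.
C1qb: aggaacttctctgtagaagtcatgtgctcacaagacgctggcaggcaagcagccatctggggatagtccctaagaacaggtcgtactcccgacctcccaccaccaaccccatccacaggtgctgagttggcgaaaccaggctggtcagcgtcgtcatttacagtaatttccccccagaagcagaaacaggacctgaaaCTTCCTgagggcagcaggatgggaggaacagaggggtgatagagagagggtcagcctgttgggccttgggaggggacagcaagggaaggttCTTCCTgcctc
C1qc: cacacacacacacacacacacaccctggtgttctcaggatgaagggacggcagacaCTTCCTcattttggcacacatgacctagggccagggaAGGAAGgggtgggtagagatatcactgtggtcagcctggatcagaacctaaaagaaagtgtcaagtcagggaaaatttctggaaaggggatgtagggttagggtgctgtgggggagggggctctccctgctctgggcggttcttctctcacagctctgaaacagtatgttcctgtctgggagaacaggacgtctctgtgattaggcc
C3: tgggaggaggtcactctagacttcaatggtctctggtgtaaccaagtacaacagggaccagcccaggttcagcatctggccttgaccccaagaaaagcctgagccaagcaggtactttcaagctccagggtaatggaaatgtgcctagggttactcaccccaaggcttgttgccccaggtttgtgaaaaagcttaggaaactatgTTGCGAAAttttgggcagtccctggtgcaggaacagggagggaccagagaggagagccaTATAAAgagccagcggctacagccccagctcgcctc
A set of 4 motifs was searched on both strands. The ETS-type core AGGAAG, bound by factors such as the myeloid regulator PU.1, occurred in both C1q promoters, at 2 places in each (as CTTCCT where it is on the other strand). It also occurred in the promoter of C3ar1, which held TATAAA as well, and it is found in 35.4% of 32851 promoters of this length. The C3 promoter held the C/EBP-type TTGCNNAA (10.8% of promoters) and TATAAA (13.6%), the latter after the annotated start. TTCNNNGAA, the pattern bound by STAT factors (8.30%), was in none of the 5, and the Cfp promoter held none of the motifs. These matches are letters in a window and were not tested as sites.

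C1q, the recognition molecule of the classical pathway, was a transcript of the macrophage classes. In large macrophages C1qa stood at 4252 CPM in WT and 3623 in Xbp1dIEC. C1qb stood at 5088 and 4212 CPM and C1qc at 4781 and 4187 CPM in the same cells. Each of the 2072 WT large macrophages, and 1912 of the 1916 Xbp1dIEC ones, held UMIs of all 3 chains. In macrophages with Folr2 and Retnla the levels were 5586 and 5391 CPM for C1qa, 6588 and 5862 CPM for C1qb, and 4430 and 4237 CPM for C1qc. All 3 chains were found in 144 of these 144 cells in WT and in 168 of 170 in Xbp1dIEC.

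**Figure D1:**
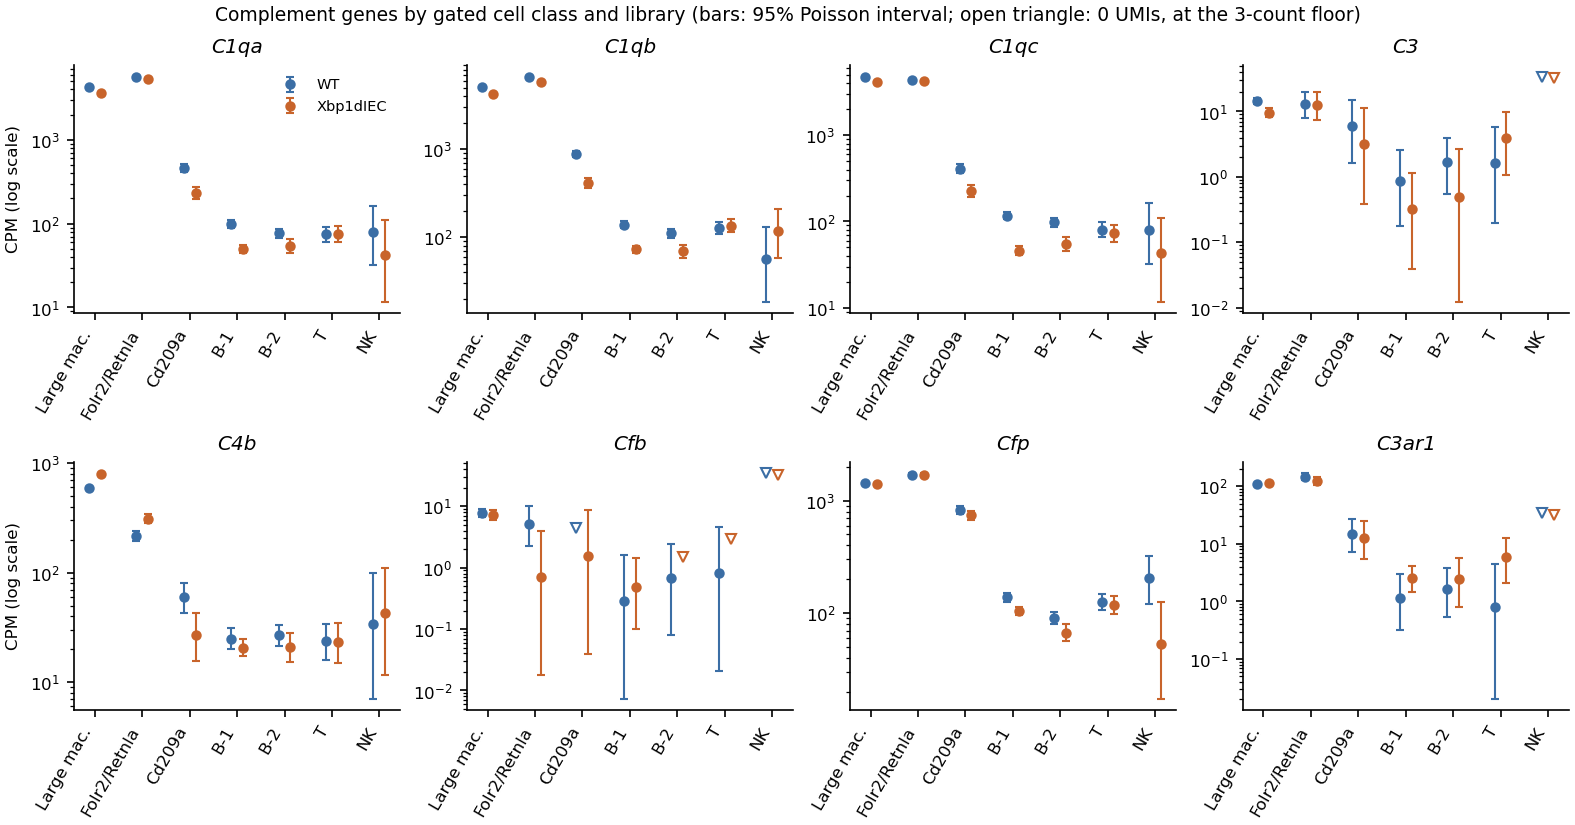
Level of each complement gene in CPM (log axis) in the 7 gated classes, WT in blue and Xbp1dIEC in orange; points are summed UMIs of 1 library, bars are 95% Poisson intervals and open triangles stand at the limit of 3 counts where no UMI was found. C1qa, C1qb and C1qc stood between 3623 and 6588 CPM in both macrophage classes and at 136 CPM or less in B and T cells of Xbp1dIEC, while Cfp stood at 822 and 742 CPM in cells with Cd209a.

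Summed over the chains, the order of the C1q levels was the same in both libraries: macrophages with Folr2 and Retnla, then large macrophages, then cells with Cd209a, then lymphocytes. The place of the cells with Cd209a above lymphocytes held for the gate used throughout and not for a stricter one described below. For the sum of the chains, the log2 ratio of macrophages with Folr2 and Retnla over large macrophages was 0.23 in WT (0.21 to 0.25) and 0.37 in Xbp1dIEC (0.35 to 0.39). The chains did not contribute alike to this difference. C1qa was higher by 0.39 and 0.57 and C1qb by 0.37 and 0.48 on the log2 scale. C1qc was lower in WT, at -0.11 (-0.15 to -0.08), and its interval included 0 in Xbp1dIEC, at 0.02 (-0.02 to 0.06).

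The makeup of C1q therefore differed between the macrophage classes in the same direction in both libraries. C1qc made up 33.9% of C1q UMIs in WT large macrophages (33.7 to 34.0, exact binomial) and 34.8% in those of Xbp1dIEC (34.6 to 35.0). Its share was 26.7% (26.1 to 27.2) and 27.4% (26.8 to 27.9) in macrophages with Folr2 and Retnla. The values of the 2 classes do not overlap in either library. C1qb was the leading chain in both macrophage classes. Its share was 36.0% in WT and 35.0% in Xbp1dIEC large macrophages, and 39.7% and 37.8% in macrophages with Folr2 and Retnla. In cells with Cd209a the C1qb share was larger, at 50.5% in WT and 47.6% in Xbp1dIEC. In T cells C1qb made up 45.3% and 47.6% of C1q UMIs. There, 1 WT cell held 38 of the 158 C1qb UMIs, and 4 Xbp1dIEC cells held 65% of those of that library. The C1qb share was 39.2% and 43.3% in B-1 cells and 38.9% and 39.0% in B-2 cells.

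**Figure D2:**
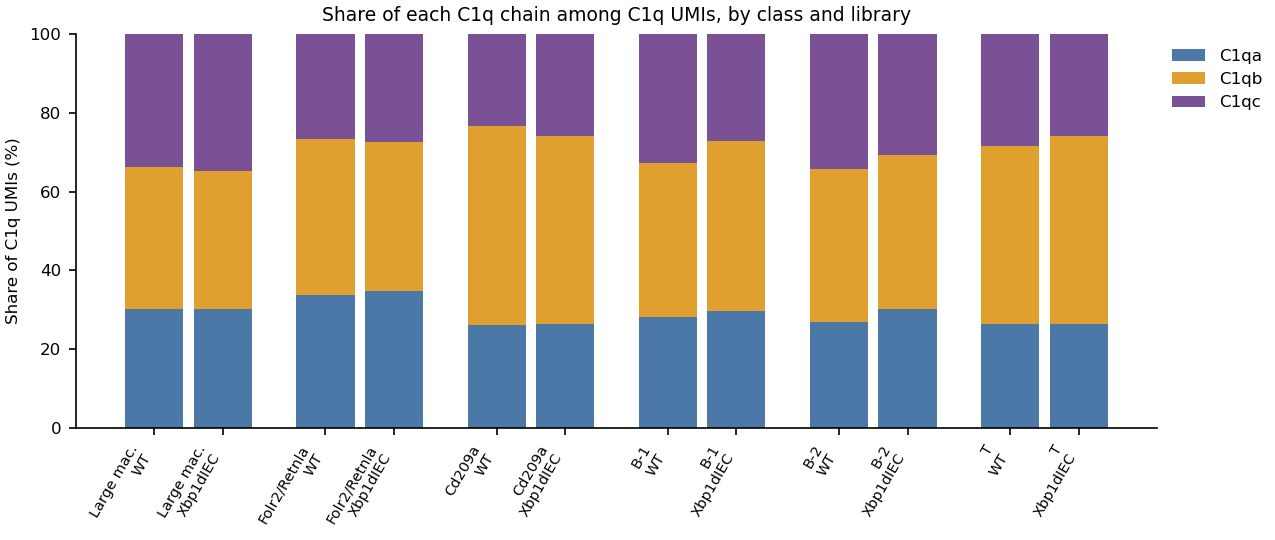
Share of each chain among the C1q UMIs (percent) by class and library, as stacked bars; NK cells, with 19 C1q UMIs in each library, are not drawn. The C1qc part is 33.9% and 34.8% in large macrophages and 26.7% and 27.4% in macrophages with Folr2 and Retnla.

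Cell by cell, C1q was spread over the whole macrophage class and not carried by a few cells. A WT large macrophage held between 9 and 523 C1q UMIs, with a median of 142, and an Xbp1dIEC one between 3 and 603, with a median of 92. To remove the difference in depth, each cell was thinned to 2000 UMIs. The median was then 26 in WT and 22 in Xbp1dIEC, the 10th percentile 12 and 9, and the 90th percentile 43 and 37. The thinned medians were 33 and 30 in macrophages with Folr2 and Retnla.

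The distribution had another shape in cells with Cd209a. Their thinned median was 1 C1q UMI in WT and 0 in Xbp1dIEC, and 10 of 87 and 5 of 93 cells had 10 or more. Those few cells held 73.0% of the C1q UMIs of the class in WT and 55.5% in Xbp1dIEC. The class level of 1766 CPM in WT and 874 CPM in Xbp1dIEC thus stands for a minority of cells. Under a stricter gate, chosen after the data were seen, that also limited Retnla and macrophage markers, 52 and 55 cells remained with 307 CPM (115 UMIs, interval 254 to 369) and 178 CPM (65 UMIs, 138 to 227) of C1q. T cells held 284 CPM in each library (255 to 315 in WT and 253 to 319 in Xbp1dIEC). Under this gate the C1q of cells with Cd209a was thus not above the T cell level beyond its interval in WT. In Xbp1dIEC it was below the T cell level, where 2 T cells with 10 or more thinned C1q UMIs held 33.3% of the C1q UMIs of their class. B-1 and B-2 cells held 357 and 285 CPM in WT and 169 and 179 CPM in Xbp1dIEC, the latter within the interval of the cells with Cd209a.

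**Figure D3:**
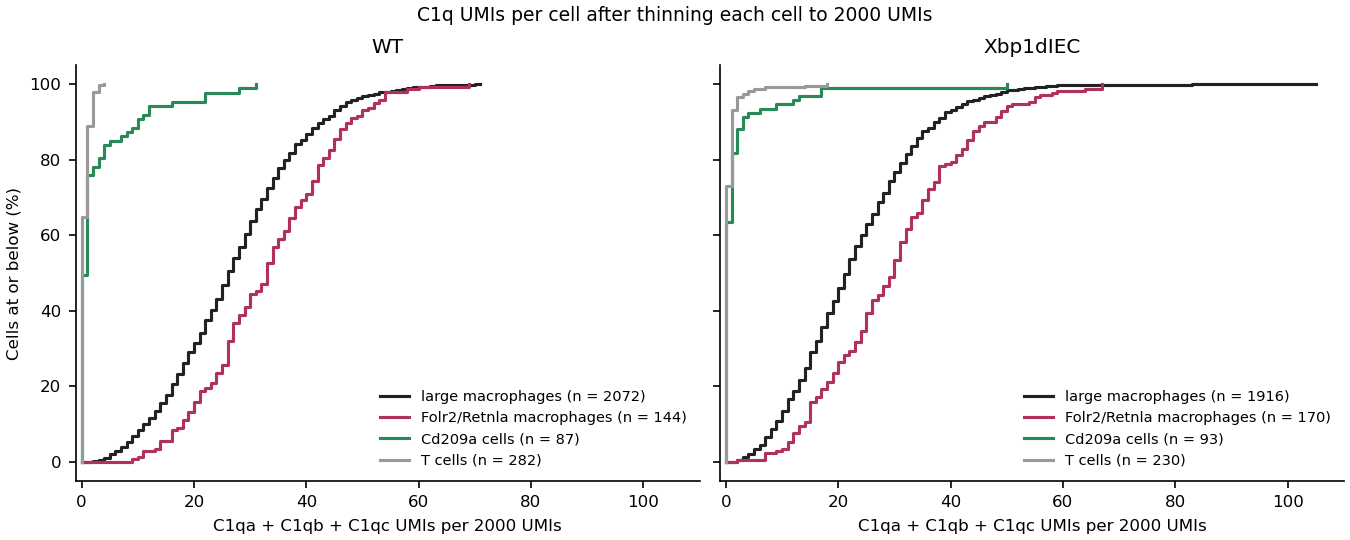
Cumulative share of cells (percent, vertical axis) by C1q UMIs per cell after thinning each cell to 2000 UMIs (horizontal axis), WT left and Xbp1dIEC right. Both macrophage classes rise smoothly around medians of 22 to 33 UMIs, T cells lie near 0, and cells with Cd209a lie near 0 apart from a tail of 10 WT and 5 Xbp1dIEC cells at 10 or more.

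Between genotypes, all C1q chains were lower in Xbp1dIEC large macrophages, by a small amount. The log2 ratio of Xbp1dIEC over WT, with 1 CPM added, was -0.23 for C1qa (-0.25 to -0.22), -0.27 for C1qb (-0.29 to -0.26) and -0.19 for C1qc (-0.21 to -0.18). In macrophages with Folr2 and Retnla it was -0.05, -0.17 and -0.06, and each of these intervals lay below 0. No chain reached a 1.5-fold difference in either macrophage class. The chains do not give independent values of genotype, since they come from the same 2 libraries.

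The gap between libraries was wider in 3 classes with less C1q. In cells with Cd209a the log2 ratio of the summed chains was -1.01 (-1.16 to -0.87), in B-1 cells -1.08 (-1.20 to -0.96) and in B-2 cells -0.67 (-0.85 to -0.49). Some marker genes of macrophages with Folr2 and Retnla were also lower in the Xbp1dIEC cells with Cd209a. Retnla stood at 4248 CPM in WT and 1871 CPM in Xbp1dIEC and Folr2 at 19.3 and 4.71 CPM (13 and 3 UMIs). Csf1r, of the same marker list, was not lower, at 150 and 152 CPM. Lyz2, a gene of both macrophage classes, stood at 8313 and 6295 CPM. Of the large macrophage genes, Alox15 was higher there, at 49.1 and 95.7 CPM, and Prg4 stood at 77.3 and 80 CPM. The part of such transcripts in the C1q ratio was not tested. The ratio was -0.78 under the stricter gate (-1.24 to -0.33). In T cells it was 0.00 (-0.22 to 0.23). The B-1 value rests partly on few cells: 3 WT cells with 10 or more thinned C1q UMIs held 32.8% of the WT total, and 1 such cell held 7.94% of the Xbp1dIEC total.

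C4b, the C4 protein that C1 cleaves, was a transcript of large macrophages. It stood at 591 CPM in WT (12925 UMIs) and 794 CPM in Xbp1dIEC (12592 UMIs). The level was 215 and 310 CPM in macrophages with Folr2 and Retnla, and 59.5 and 26.7 CPM in cells with Cd209a. Unlike C1q, C4b was thus higher in large macrophages than in those with Folr2 and Retnla, by a log2 ratio of 1.45 in WT (1.30 to 1.61) and 1.35 in Xbp1dIEC (1.21 to 1.49). After thinning, 64.9% of WT and 74.0% of Xbp1dIEC large macrophages held a C4b UMI, and 92.7% and 94.1% did before thinning. For macrophages with Folr2 and Retnla the thinned shares were 30.6% and 36.5%.

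Of the 8 genes, C4b was the one whose interval lay above 0 in the comparison of genotypes. The log2 ratio was 0.42 in large macrophages (0.39 to 0.46) and 0.53 in macrophages with Folr2 and Retnla (0.32 to 0.73). After thinning, the value in the latter was 0.26 and its interval included 0 (-0.20 to 0.73). The 10 marker genes of large macrophages summed to 2241 CPM in WT and 2880 CPM in Xbp1dIEC in that class, but they did not all go the same way. Alox15 stood at 546 and 919 CPM and Prg4 at 801 and 1069 CPM. Gata6 stood at 23.1 and 16.2 CPM (36 and 23 UMIs) and Timd4 at 31.4 and 20.4 CPM (49 and 29 UMIs), both limited by the gate. H2-Ab1 stood at 1602 and 739 CPM. The part of these genes in the C4b ratio was not tested. In cells with Cd209a it was -1.13 (-2.0 to -0.30), from 40 UMIs in WT, of which 17 lay in 1 cell, and 17 UMIs in Xbp1dIEC. B-1, B-2 and T cells had 20.7 to 26.9 CPM, with intervals of the ratio that included 0.

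C4b also differed within the large macrophages. Cycling cells, taken as those with at least 2 UMIs summed over Top2a, Mki67, Birc5, Ube2c and Stmn1, made up 13.4% of this class in WT (277 cells) and 5.69% in Xbp1dIEC (109 cells). These cells had more UMIs, with a median of 14877 and 12286, against 9892 and 8082 in the rest. C4b stood at 364 CPM in the cycling and 642 CPM in the other cells of WT, and at 477 and 823 CPM in those of Xbp1dIEC. C1qa, at 3666 against 4383 CPM and 2709 against 3707 CPM, was also lower in the cycling cells of both libraries. The same held for C1qb, C1qc and Cfp, the last at 1193 against 1473 CPM and 1100 against 1435 CPM. How many of all genes were lower in the cycling cells was not counted. C3ar1 was lower there too, at 77.0 against 115 CPM in WT and 88.7 against 115 CPM in Xbp1dIEC. Without the cycling cells the log2 ratio of genotypes in the class was 0.36 for C4b and -0.24 for the C1q sum.

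Cells with 5 or more UMIs of Cxcl13, a chemokine that draws B cells into the cavity, numbered 497 in WT and 534 in Xbp1dIEC. They held more C4b than the cells with 0 or 1 Cxcl13 UMI, 675 against 552 CPM in WT and 854 against 770 CPM in Xbp1dIEC. Cfp went the other way in both libraries, at 1273 against 1494 CPM and 1303 against 1475 CPM. These are differences between cells within 1 pool per genotype and carry no error over mice.

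C3, the component on which all pathways converge, was found at a low level. Large macrophages had 14.4 CPM in WT (314 UMIs) and 9.58 CPM in Xbp1dIEC (152 UMIs), and no cell held more than 4 UMIs. A C3 UMI was seen in 13.3% of WT and 7.41% of Xbp1dIEC large macrophages. After thinning the shares were 2.90% and 1.57%. In T cells, read for comparison, the unthinned shares were 0.709% (2 of 282 cells) and 1.74% (4 of 230 cells). The T cells had median depths of 3655 and 3940.5 UMIs. The thinned share in T cells was 0.709% in WT and 0 of 230 cells in Xbp1dIEC, with an exact upper bound of 1.59%. Macrophages with Folr2 and Retnla held 12.8 and 12.6 CPM from 20 and 18 UMIs, which did not differ from large macrophages beyond their intervals in either library. Cells with Cd209a had 4 and 2 UMIs.

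The log2 ratio of genotypes for C3 in large macrophages was -0.54 (-0.80 to -0.28). Over the 13 alternatives it ran from -0.98 to -0.32, all in the same direction but not all on the same side of 1.5-fold. It was -0.32 with 10 CPM added, -0.48 centred on the median of all genes and -0.51 with lower limits on other lineages, each under 1.5-fold. It was -0.59 without the cells of 5% or more mitochondrial UMIs, -0.63 as a mean of per-cell CPM, -0.83 after thinning and -0.98 when the T and NK cell level was subtracted, each past 1.5-fold. The subtracted level rests on 2 C3 UMIs in WT and 4 in Xbp1dIEC, and whether T and NK cells make C3 themselves was not tested. The interval in macrophages with Folr2 and Retnla was -0.94 to 0.90 around -0.02, so no difference was detectable at that depth.

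Cfb, the convertase subunit of the alternative pathway, was rarer still. It stood at 7.82 CPM in WT large macrophages (171 UMIs) and 7.19 CPM in Xbp1dIEC ones (114 UMIs), in 7.72% and 5.64% of the cells. The log2 ratio was -0.11 (-0.42 to 0.20). Only 8 UMIs in WT and 1 in Xbp1dIEC came from macrophages with Folr2 and Retnla. The remaining classes held 0 to 3 UMIs in each library, and 0 UMIs in WT cells with Cd209a allow up to 4.46 CPM.

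Cfp, which encodes properdin, was shared by all myeloid classes. Large macrophages held 1421 CPM in WT (31080 UMIs) and 1407 CPM in Xbp1dIEC (22323 UMIs). Macrophages with Folr2 and Retnla held 1684 and 1678 CPM, above large macrophages by a log2 ratio of 0.24 (0.19 to 0.30) and 0.25 (0.19 to 0.32). Cells with Cd209a held 822 and 742 CPM, which is 57.9% and 52.8% of the large macrophage level, whereas C1qa in the same cells stood at 10.9% and 6.37% of it.

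Cfp in the cells with Cd209a was not confined to a few cells, unlike C1q. A Cfp UMI was found in 97.7% of these cells in WT and 91.4% in Xbp1dIEC, and in 66.7% and 60.2% after thinning. T cells held one in 24.8% and 19.1%, and in 16.3% and 11.3% after thinning. Under the stricter gate for cells with Cd209a the Cfp level was 654 CPM (245 UMIs) and 692 CPM (252 UMIs), so Cfp stood above C4b and the C1q chains relative to the large macrophage level in both gates.

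The Cfp level did not separate the genotypes in macrophages. The log2 ratio was -0.01 in large macrophages (-0.04 to 0.01) and -0.01 in macrophages with Folr2 and Retnla (-0.09 to 0.07), so differences beyond these bounds lie outside the counting error. In cells with Cd209a it was -0.15 (-0.33 to 0.03). It was -0.40 in B-1 cells (-0.57 to -0.22) and -0.42 in B-2 cells (-0.73 to -0.13).

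C3ar1, the receptor for the C3 fragment C3a, was found mainly in the macrophage classes. It stood at 108 CPM in WT large macrophages (2354 UMIs) and 113 CPM in those of Xbp1dIEC (1793 UMIs). Macrophages with Folr2 and Retnla had 147 and 123 CPM. That was above large macrophages in WT, by a log2 ratio of 0.45 (0.25 to 0.64), and the interval included 0 in Xbp1dIEC, at 0.12 (-0.11 to 0.34). Thinned shares of cells with a C3ar1 UMI were 20.0% and 20.5% of large macrophages and 27.1% and 27.6% of macrophages with Folr2 and Retnla. Cells with Cd209a held 10 and 8 UMIs, and lymphocyte classes 0 to 16. The log2 ratio of genotypes was 0.07 in large macrophages (-0.02 to 0.16) and -0.26 in macrophages with Folr2 and Retnla (-0.55 to 0.03).

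Counted over the 8 genes, 0 of 8 passed a 1.5-fold difference between genotypes in large macrophages, against 3.37% of the 10839 genes with 30 or more UMIs there. The interval lay above 0 for 1 gene, C4b, against 8.96% of all genes, and below 0 for 4, the C1q chains and C3, against 24.9% of all genes. Intervals narrow as UMIs rise, and each C1q chain held 57479 UMIs or more in each library. The shares of all genes are thus not at like depth, here and in the counts of intervals below. The median log2 ratio was -0.15 over the 8 genes and -0.06 over all genes. In macrophages with Folr2 and Retnla 7 genes were measured and none of these passed 1.5-fold, against 12.0% of all genes. There 1 interval lay above 0, against 4.56%, and 3 lay below, against 10.9%, with medians of -0.05 for the 7 genes and -0.08 for all.

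In cells with Cd209a 4 of 5 measured genes were lower by 1.5-fold or more, against 14.5% of all genes in either direction. They were the C1q chains and C4b. The C1q counts came mostly from the 10 WT and 5 Xbp1dIEC cells described above, and 17 of the 40 WT C4b UMIs from 1 cell. Under the stricter gate the C1qb level of WT was 134 CPM (99.1 to 176) against 113 CPM for Xbp1dIEC (80.7 to 153), which is less than 1.5-fold apart. In B-1 cells 3 of 5 passed, against 8.69%, and in B-2 cells 2 of 5, against 7.99%, all of them C1q chains and lower in Xbp1dIEC. In T cells 0 of 5 passed, against 11.0%, and in NK cells no gene reached 30 UMIs. A gene could reach 30 UMIs through 1 of the libraries, so these numbers are a description.

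**Figure D4:**
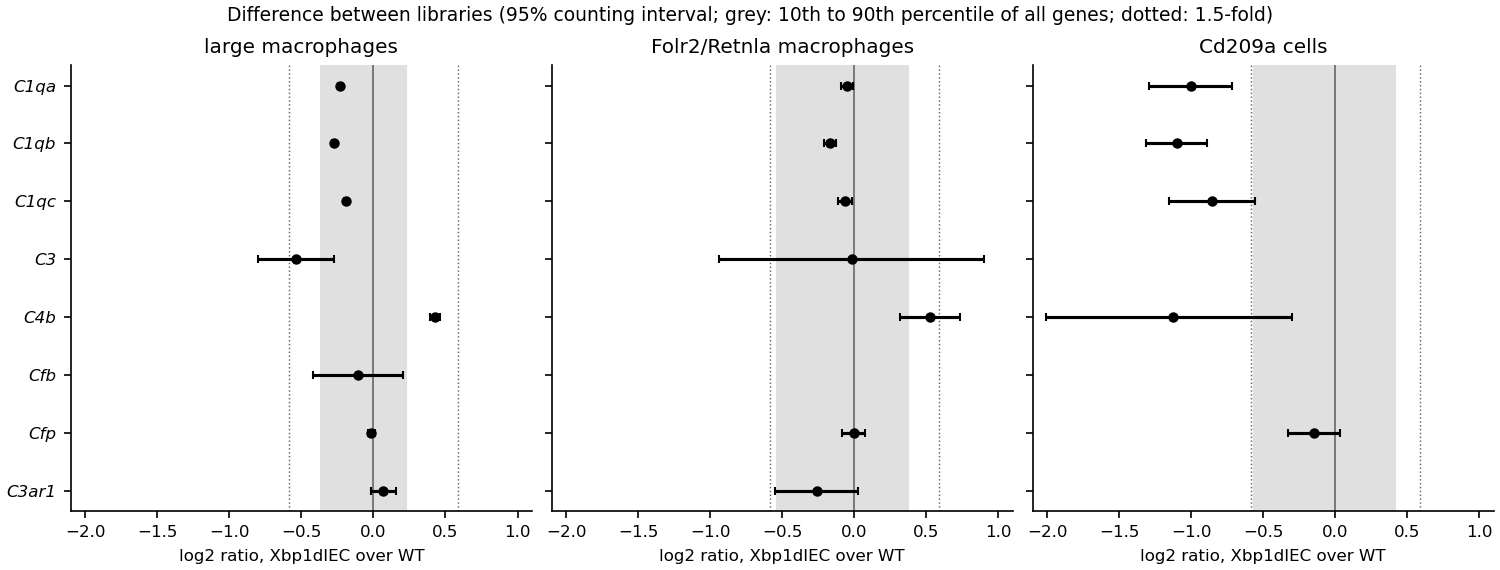
Log2 ratio of Xbp1dIEC over WT for the measured complement genes in 3 classes, with 95% counting intervals; the grey band spans the 10th to 90th percentile of all genes with 30 or more UMIs in the class and dotted lines mark 1.5-fold. C4b lies at 0.42 and 0.53 in the macrophage classes, and the C1q chains lie between -0.27 and -0.05 there and between -1.10 and -0.85 in cells with Cd209a.

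The signal in lymphocytes has to be read beside the free RNA of the suspension, since droplets take up transcripts that lysed cells released. A panel of 10 macrophage genes (Lyz2, Apoe, Prg4, Alox15, Csf1r, Adgre1, Cd14, Fn1, Timd4 and Ctsd) gave the level at which macrophage RNA appears in lymphocytes, as a percent of the large macrophage CPM. In WT it ran from 0.763% to 6.63% in B-1 cells (median 1.97%), from 1.28% to 6.95% in B-2 cells (median 2.47%) and from 0.941% to 15.4% in T cells (median 2.3%). In Xbp1dIEC the medians were 1.73%, 1.90% and 2.08%.

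The C1q chains in lymphocytes lay within that range. They stood at 2.36% to 2.75% of the macrophage level in WT B-1 cells and 1.09% to 1.73% in Xbp1dIEC ones. In B-2 cells they stood at 1.81% to 2.18% and 1.31% to 1.65%. In T cells they were at 1.68% to 2.52% and 1.76% to 3.22%. C4b, at 3.99% to 4.56% in WT and 2.60% to 2.93% in Xbp1dIEC, lay within it as well. In T cells the upper end of the range is set by Ctsd, and the next gene, Apoe, lay at 5.84% in WT and 4.62% in Xbp1dIEC. Levels within the range do not show expression by lymphocytes. The 3 WT B-1 cells with 10 or more thinned C1q UMIs held 32.8% of the C1q UMIs of that class.

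In B-1 cells the macrophage genes were also lower in Xbp1dIEC, with a median log2 ratio of -0.41 and 8 of 10 genes lower. They ran from -0.72 to 0.31, and C1qa, C1qb and C1qc lay below that range, at -0.99, -0.93 and -1.33. In B-2 cells the median of the macrophage genes was -0.15 and 7 of 10 were lower, with a range of -0.77 to 0.32. The C1q chains stood there at -0.50, -0.66 and -0.81. In T cells the median of the macrophage genes was 0.08. The part of the shift of the macrophage genes in the genotype ratios of C1q in these lymphocyte classes was not tested.

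Cfp in lymphocytes stood higher against its macrophage level than the C1q chains did. It was at 9.69% in WT B-1 cells (8.83 to 10.6), 6.36% in B-2 cells (5.63 to 7.17) and 8.86% in T cells (7.52 to 10.4). In Xbp1dIEC it was at 7.42%, 4.78% and 8.39%. The B-1 value of both libraries exceeded the highest of the 10 macrophage genes in B-1 cells, which was 6.63% in WT and 5.6% in Xbp1dIEC. In T cells Ctsd, a lysosomal protease that lymphocytes also make, lay above Cfp at 15.4% and 19.0%. Cells with 5 or more Cfp UMIs, 11 of 282 in WT and 10 of 230 in Xbp1dIEC, held 54.2% and 62.3% of the Cfp UMIs of the T cells. Such cells held less of the total in B-1 cells, 29.7% and 19.9%, and in B-2 cells, 13.2% and 20.3%. A Cfp UMI was found in 58.3% of WT and 54.0% of Xbp1dIEC B-1 cells. The B-1, B-2, T and NK cell gates set no limit on Cd209a. T cells carried Cd209a at 104 and 163 CPM and H2-Ab1 at 1631 and 1923 CPM. Cd209a stood at 10.2 CPM in WT and 29.9 CPM in Xbp1dIEC B-1 cells, and at 19.3 and 5.36 CPM in B-2 cells. In the WT NK cells 1 cell held 14 of the 18 Cfp UMIs, and that class held 13 Cd209a UMIs and H2-Ab1 at 3452 CPM, against 0 Cd209a UMIs and 32.1 CPM of H2-Ab1 in Xbp1dIEC NK cells. The part of such transcripts in the Cfp of the lymphocyte classes was not tested.

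**Figure D5:**
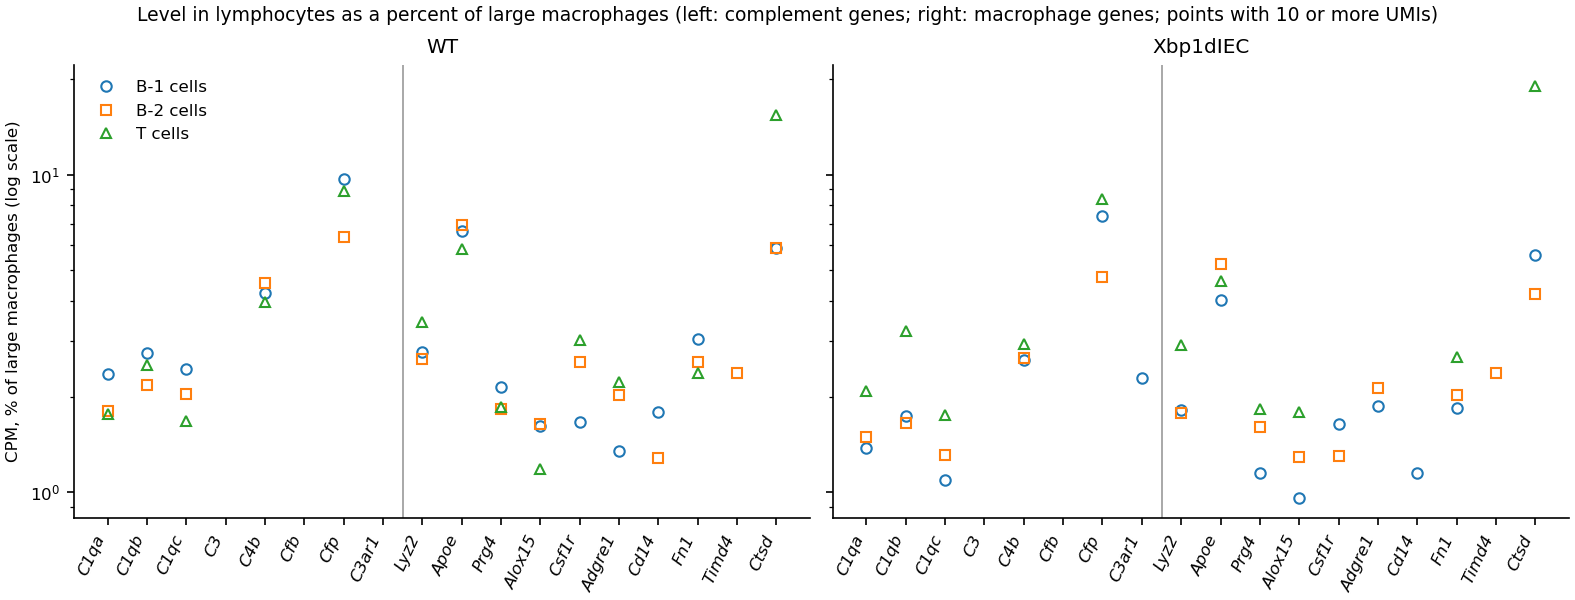
Level in B-1, B-2 and T cells as a percent of the large macrophage CPM of the same library (log axis), for the complement genes on the left of the line and macrophage genes on the right, with points drawn only from 10 UMIs upward. The C1q chains lie between 1.09% and 3.22% beside medians of 1.73% to 2.47% for the macrophage genes, and Cfp lies between 4.78% and 9.69%.

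Stromal cells, a known source of complement proteins, left little trace in the macrophage gates. All 5 fibroblast markers (Col1a1, Col3a1, Dcn, Col1a2 and Lum) had 0 UMIs in both macrophage classes and in the cells with Cd209a, except Col3a1 in the Xbp1dIEC large macrophages, where the list summed to 0.0630 CPM. The 6 mesothelial markers summed to 0.183 and 0.189 CPM in large macrophages and were at 0 in macrophages with Folr2 and Retnla. Of the 5 neutrophil markers S100a9, Retnlg and Ly6g were at 0 in large macrophages, and the list summed to 69.6 and 86.4 CPM.

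Other genes of the complement system were read from lists grouped by role, 47 genes in all. In large macrophages 18 of the 47 were measured, 2 had intervals above 0 and 9 below, against 8.96% and 24.9% of all genes, and none passed 1.5-fold. Their median log2 ratio was -0.27. No UMI was found in any class for the collectin and ficolin genes Mbl1, Mbl2 and Fcnb, for the protease Masp1 or for the lytic components C6, C7, C8a, C8b and C9. The same held for the fluid phase genes Cfd, Cfi, C4bp, Clu, Serping1 and Vtn, and for Cd55b.

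Among the recognition genes Fcna, a ficolin that starts the lectin pathway, stood at 518 CPM in WT and 414 CPM in Xbp1dIEC large macrophages. It was higher in macrophages with Folr2 and Retnla of both libraries, at 1069 and 1195 CPM. C2, which pairs with C4b in the classical convertase, had 4 and 9 UMIs in large macrophages.

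Of 13 receptors and partners, 10 were measured in large macrophages. The interval lay below 0 for 7 and above 0 for 1, against 24.9% and 8.96% of all genes, and the median log2 ratio was -0.29. Vsig4, a macrophage receptor for C3b, stood at 536 CPM in WT and 388 CPM in Xbp1dIEC large macrophages, a log2 ratio of -0.46 (-0.51 to -0.42). Its level was 78.8 and 130 CPM in macrophages with Folr2 and Retnla, a log2 ratio of 0.71 (0.38 to 1.05). C5ar1, the receptor for C5a, was at 122 and 102 CPM in large macrophages and at 212 and 166 CPM in those with Folr2 and Retnla, lower in Xbp1dIEC in both. Cd93, once proposed as a C1q receptor, was at 111 and 153 CPM in large macrophages, a log2 ratio of 0.45 (0.37 to 0.53), and at 34.6 and 70.9 CPM in the other macrophages.

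The partners of C1q were expressed more widely. Calr, the chaperone calreticulin that binds C1q at the cell surface, stood at 679 and 539 CPM in large macrophages and at 227 and 242 CPM in B-1 cells. C1qbp, a mitochondrial C1q-binding protein, stood at 88.8 and 70.7 CPM in large macrophages and at 117 and 118 CPM in B-1 cells. Itgb2, the beta chain of the complement receptors of the integrin family, was at 610 and 589 CPM in large macrophages, and Lrp1, a scavenger receptor that binds C1q, at 219 and 216 CPM. On B cells Cd55, which speeds the decay of convertases, was at 209 and 173 CPM in B-2 cells and at 84.5 and 70.2 CPM in B-1 cells. Cr1l, the rodent regulator Crry, was at 62.0 and 60.4 CPM in large macrophages.

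Genes most like each member were found by Pearson correlation of log2(CPM + 1) over the 14 values of 7 classes in 2 libraries, among 4008 genes. The points share libraries, depth and free RNA, so the values are a description. C1qa was most like Fn1, Ctsb and Lyz2, C1qb most like Emilin2, Lyz2 and Fn1, and C1qc most like Fn1, Lyz2 and Stab1, each at 0.99. C4b was instead close to Alox15 at 0.98 and to Prg4 at 0.97. Cfp was closest to Sdc3, Wfdc17 and Ftl1, and C3ar1 to Ano6, Rab11fip5 and Serpinb10, at 0.99. C3 was closest to Hacd4 at 0.97, and to Pros1 and Frmd4b at 0.96. Cfb reached 0.88 with Timd4 and Vmn2r26 and 0.87 with Pf4. Among the members C1qa and C1qc were most alike, at 1.00, and Cfb was least like C3 and Cfp, at 0.71.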

How the data were processed

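The values deposited by the authors are counts, as UMIs per gene and barcode in whole numbers without normalization. Per the submitters' processing notes, mm10 was the genome build and the tools included Seurat 2.3.0 and Cell Ranger 2.2.0, and the sources used here do not state the aligner settings or the gene annotation. A barcode was kept if it had at least 500 UMIs and 200 genes and its mitochondrial share was below 10%, a limit that removed 6 barcodes from WT and 20 from Xbp1dIEC. Doublets were called per library with scrublet in scanpy 1.11.5 at an expected 5%, and 140 (2.26%) and 113 (1.81%) were removed.

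Cells were gated on sums of marker UMIs, with minimums set on the distributions of these markers and not on complement genes. For example, large macrophages needed 5 or more UMIs of Timd4, Garnl3, Ltbp1, Selp and Gata6 and 3 or more of Adgre1 and Csf1r. Macrophages with Folr2 and Retnla needed 30 Retnla UMIs and 1 of Folr2 or Cbr2. No cell fell into more than 1 gate, and the gates took 58.2% of WT and 56.2% of Xbp1dIEC cells.

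Levels are CPM from the summed UMIs of a class in a library, with exact Poisson intervals. Ratios are given with 1 CPM added and with exact conditional binomial intervals, and shares of cells have Clopper-Pearson intervals, using scipy 1.17.1. The interval code was tested on simulated data. Cells were thinned to 2000 UMIs with a fixed seed, and none was shallower. A gene was measured with 30 or more UMIs in a class over both libraries. A count of 0 was limited at 3 counts.

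With 1 library per genotype no test was made. The members and lists were chosen with earlier results of these data known. Other complement genes were named at 50 CPM or more and 30 UMIs or more in a class, together with C2, which was chosen after its values were seen; a few genes that these rules name are not reported here. Of the lists, 2 symbols shared by several gene IDs and C4a were not analysed here. Alternatives covered doublets, mitochondrial share, gate limits, thinning, averaging, centring, pseudocounts, subtraction of free RNA and cycling cells.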

Additional observations from a re-analysis of the deposited data

How the results depend on the processing

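Under the alternatives run, no ratio whose interval excluded 0 changed sign. For the C1q sum between genotypes in large macrophages (-0.23), the log2 ratio was -0.19 with mitochondrial share under 5%, -0.24 after thinning, -0.25 as a mean of per-cell CPM, -0.17 centred on the median of all genes, -0.24 without cycling cells and -0.20 with a looser gate. For C3 (-0.54) it ran from -0.98 with the T and NK level subtracted, over -0.83 after thinning and -0.48 centred, to -0.32 with 10 CPM added. For C4b (0.42) it was 0.38 per cell, 0.48 centred and 0.36 without cycling cells. Cfb stayed within its interval, from -0.28 to 0.02. The count of genes past 1.5-fold was 1 (C3) after thinning, with mitochondrial share under 5% and with per-cell means, and 0 under the other 6 of the 9 alternatives in which genes were counted; subtraction of the T and NK level, under which C3 also passes, was not among them.

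The ratio of macrophages with Folr2 and Retnla over large macrophages for the C1q sum was, in WT (0.23) and Xbp1dIEC (0.37), 0.21 and 0.31 with mitochondrial share under 5%, 0.25 and 0.39 with lower limits on other lineages, 0.30 and 0.39 after thinning, 0.29 and 0.40 per cell, 0.16 and 0.28 centred, and 0.26 and 0.40 with the gate set on thinned cells. C4b in macrophages with Folr2 and Retnla (0.53) was 0.26 after thinning, with an interval that included 0. The C1q sum in cells with Cd209a (-1.01) depended most on the setting: -0.61 with doublets kept, -0.63 with the gate raised by 1 UMI, -0.67 after thinning, -0.72 per cell, -1.32 with the T and NK level subtracted and -0.78 with the stricter gate. The looser gate, the gate on thinned cells and the stricter gate were chosen after seeing the data. The cause of these shifts was not tested. No paired analysis was possible because each genotype is 1 pooled library. C3 and Cfb are limited by depth in every class but large macrophages.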
